A study of Mus musculus with 8 samples.

Results

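The genes of endoplasmic reticulum (ER) protein folding and of the early secretory pathway, 53 in all, were examined in B cells on their way into the germinal center. The members were given as a list of gene symbols that covers folding, disulfide bonding, protein import into the ER, N-glycosylation, ER-associated degradation, ER-to-Golgi transport and stress sensing, and all 53 were found among the 24259 symbols of the count table. With help from T cells that carried 1 floxed Bcl6 allele, the 53 genes stood at levels close to those seen with control help. Their median log2 fold change was 0.12, against -0.0014 over all 12744 genes tested, and none of them passed the test. Variation between libraries of the same group was larger than that between groups. Many of the 53 genes were high in the same 3 of the 8 libraries, which were singled out by these same values.

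To ask how B cells respond when the helper T cells have 1 Bcl6 allele deleted, the study transferred OT-II T cells, which recognize an ovalbumin peptide, into CD45.1 recipients without SAP, an adaptor that host T cells need to support germinal centers. Recipients were immunized with the hapten NP coupled to ovalbumin (NP-OVA) plus LPS in alum. NP+IgDlowB220+ pre-GC B cells (NP-binding B cells that have lowered surface IgD) were sorted from the draining lymph nodes of these recipients on day 3. The strain of the mice was C57BL/6. In the HET group the T cells were CD4-CrexBcl6fl/+, and in the WT group they were CD4-Cre with intact Bcl6, so that both groups had Cre in their T cells, driven by the Cd4 promoter. Each group comprised 4 libraries of about 200 cells, all 4 sorted from 1 pool of the recipients of that group. Libraries of a group thus differ by sorting and library preparation alone, and the effect of the group and that of its pool cannot be told apart. Because the deletion was in the helper T cells, which were not sequenced here, there was no targeted gene to check. The ages of the mice were not given in the sources used here.

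Proteins bound for the cell surface or for secretion enter the ER through the Sec61 channel, lose their signal peptide, receive N-linked glycans and fold with the help of chaperones and disulfide isomerases. Misfolded chains are sent back to the cytosol for degradation, and folded ones leave in COPII-coated vesicles for the Golgi. When unfolded proteins build up, the sensors IRE1α (encoded by Ern1), ATF6 and PERK (encoded by Eif2ak3) raise the expression of many of these genes, and this machinery is best known in B cells for its large expansion as they become antibody-secreting plasma cells.

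The libraries held between 6652386 and 12559189 counts, at which 3 counts equalled 0.241 to 0.455 CPM. CPM are read counts relative to the library total, scaled by the trimmed mean of M values (TMM). The labelled cell type was checked with 9 B cell markers, which summed to between 21458 and 22754 CPM in HET and between 24516 and 27125 CPM in WT. All 9 were lower in HET, 7 of them at an unadjusted p under 0.05 by edgeR, where 7.22% of all genes were in either direction. By edgeR none passed an adjusted p of 0.05, and by DESeq2 Cd74 alone did (adjusted p = 0.0095). Cd74, Cd79b, Ms4a1, Ptprc and Ebf1 were lower in HET without overlap, as 2.62% of all genes were, and the other markers overlapped. Markers of T cells (225.7 to 404 CPM in HET, 139 to 315 in WT) and of myeloid cells (10.6 to 25.6 and 20.4 to 422 CPM) were low by comparison. Cd4 was at 0 in 5 libraries, and its highest count was 7 reads. Library WT 2 held most of the myeloid RNA, with Lyz2 at 399 CPM. None of these lists, as a sum, separated the libraries in which the ER genes were high (HET 1, HET 4 and WT 4, below). Cd4 was above 0 only in these libraries, at 0.241, 0.758 and 0.731 CPM. The part of these lists and of Cd4 in the values below was not tested.

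Levels of different genes were compared as CPM per kilobase of the longest protein-coding transcript, averaged over the 8 libraries. Whether the longest annotated transcript was the one expressed was not tested, and the order of the members depends on this choice. Sec11c, for example, was divided by 860 bases and Dad1 by 3491. On this scale the levels of the members spanned 1177-fold around a median of 56.7, with 14 members above 100, 32 from 10 to 100 and 7 below 10. Sec11c, a catalytic subunit of the signal peptidase, had the highest level (330, range 282 to 441). Sec61b, a small subunit of the import channel, came next at 271 (225 to 448), so their ranges overlapped. Ssr4, a subunit of the translocon-associated protein complex, stood at 204, and the chaperones Calr (calreticulin), Hsp90b1 (GRP94) and Hspa5 (BiP) stood at 190, 179 and 170. At the other end were Hyou1 at 4.75, Sec63 at 3.34, Sec24d at 2.95, Edem3 at 1.43 and Ern1 at 0.28. Ern1 gave only 1 to 44 reads per library and Sec24d only 9 to 388. The other 51 members were above the count filter of 1.15 CPM in all 8 libraries.

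**Figure D1:**
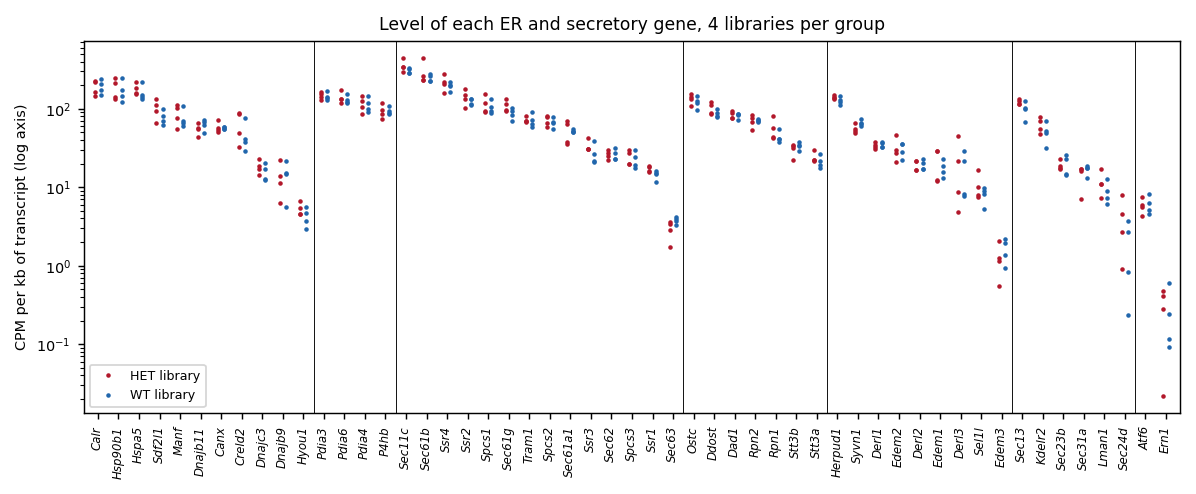
Level of each member in CPM per kilobase of its longest protein-coding transcript (log axis), with 1 point per library and the 4 HET libraries (red) left of the 4 WT libraries (blue), in the order of roles used in the text and falling level within a role. The points of HET and WT overlap for every gene, and Sec24d, Derl3 and Ern1 have the widest spread between libraries.

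The deposited TPM values could not be used for this ranking. The length by which each gene's counts had been divided equalled the mean genomic span of its transcripts, introns included, to within 1% for 97.8% of 7506 genes with at least 1000 counts. It equalled the mean spliced length for only 1.03% of them. By TPM, Hspa5, a compact gene of 5578 bases, stood first among the members at 789. The comparison of HET with WT below was made on counts, which do not use these lengths. On log2(TPM + 1), whose common total depends on them, the difference in the members' mean was 0.05 in place of 0.11, and Pdia3 and Pdia4 turned in direction. That setting also lacked TMM scaling and used another pseudocount, and what moved the values was not tested.

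A sequence feature shared by members of several roles was found before their starts. The ER stress response element, which reads CCAAT, then 9 bases of any kind, then CCACG, is a composite site known to be used by ATF6 and XBP1 together with NF-Y. RefSeq promoters (GRCm38.p6, 250 bases before and 50 after the annotated start) were available for 41 of the 53 members, and 9 of these 41 (22%) held the element on either strand, against 37 of 27025 genes (0.137%) over the whole promoter table. The 9 members were Hspa5, Hsp90b1 (which held 2 matches), Calr, Canx, Pdia6, Dnajc3, Creld2, Syvn1 and Derl3, and they are among the 37 genes. This element and those below were chosen as ones known for the stress response of this pathway. Their shares thus describe the promoters and are no test of the list. The 250 bases before the start of Hspa5 (chr2:34771840-34772089, + strand), the classical target gene of the unfolded protein response, are shown whole, with the CCAAT and CCACG parts in capitals. The other matches are shown with 10 bases on each side, on the strand on which the element reads from CCAAT to CCACG.
Hspa5: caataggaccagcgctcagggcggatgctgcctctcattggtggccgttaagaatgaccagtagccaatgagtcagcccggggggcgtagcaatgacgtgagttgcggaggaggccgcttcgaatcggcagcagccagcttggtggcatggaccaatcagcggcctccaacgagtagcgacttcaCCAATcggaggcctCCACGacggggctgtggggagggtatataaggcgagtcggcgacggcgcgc
Hsp90b1, chr10:86705523-86705561, + strand: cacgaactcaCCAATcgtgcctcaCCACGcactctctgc
Hsp90b1, chr10:86705628-86705666, - strand: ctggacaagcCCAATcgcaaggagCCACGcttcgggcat
Calr, chr8:84847065-84847103, + strand: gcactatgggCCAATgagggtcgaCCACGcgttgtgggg
Canx, chr11:50325790-50325828, - strand: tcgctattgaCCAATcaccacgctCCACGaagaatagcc
Pdia6, chr12:17266481-17266519, + strand: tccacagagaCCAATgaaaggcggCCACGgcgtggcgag
Dnajc3, chr14:118937817-118937855, + strand: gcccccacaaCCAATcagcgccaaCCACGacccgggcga
Creld2, chr15:88819510-88819548, - strand: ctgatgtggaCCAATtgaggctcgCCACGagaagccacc
Syvn1, chr19:6046522-6046560, + strand: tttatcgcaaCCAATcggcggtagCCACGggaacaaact
Derl3, chr10:75893232-75893270, - strand: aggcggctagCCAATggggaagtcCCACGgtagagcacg

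The matches lay between 25 bases (Syvn1) and 212 bases (Hsp90b1) before the start, and that of Hspa5 from 65 to 46 bases before it. A second form, ER stress response element II (ATTGG, 1 base of any kind, then CCACG), was found in Herpud1 and in Dnajb11 (where it did not end before the start), 4.88% of the 41 members against 0.0444% of all genes. The unfolded protein response element TGACGTGG was found in Sec24d alone (2.44% against 0.714%). Read on the other strand, TGACGTGG begins with the CCACG that ends the other elements. The Herpud1 and Sec24d matches are shown in the same way.
Herpud1, chr8:94386367-94386397, + strand: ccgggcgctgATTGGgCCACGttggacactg
Sec24d, chr3:123267460-123267487, + strand: cccgggcgccTGACGTGGcactagcaac

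A match describes these letters only, and the lack of one says only that they were not in the window. Members with the first element did not stand apart in the median change between groups or in the spread within groups. The order of the libraries was not compared between members with and without it. Their median log2 fold change was 0.09, against 0.11 for the other members with a promoter, and their median SD within groups was 0.30 against 0.29 on the log2 scale. The 12 members without a promoter entry were Manf, Hyou1, Derl1, Sec61a1, Ssr2, Spcs3, Sec11c, Ostc, Kdelr2, Lman1, Tram1 and Atf6.

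**Figure D2:**
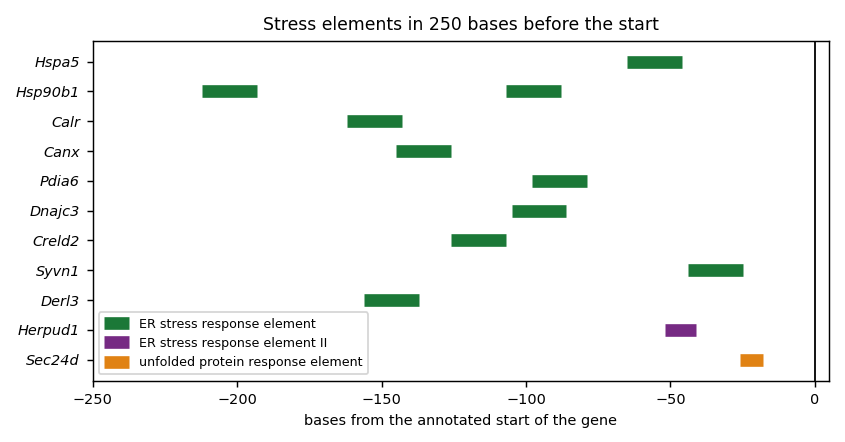
Position of each match of the 3 elements in the 250 bases before the annotated start of 11 members, in bases from the start (vertical line at 0). The ER stress response elements (green) end between 25 and 193 bases before the start, and those of Herpud1 (purple) and Sec24d (orange) end at 41 and 18 bases.

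For the comparison of HET with WT, all 53 members entered the fit across 12744 genes. By edgeR's quasi-likelihood test 0 of 53 members passed an adjusted p of 0.05, with adjusted p-values from 0.642 (Sec61g) to 0.992. Over all genes 3 passed (0.0235%), all lower in HET. At an unadjusted p under 0.05 there were 2 members, where 7.22% of all genes were. Of these, 1 was higher (1.89%, against 3.34% of all genes) and 1 lower (1.89%, against 3.88%). By DESeq2 0 members passed an adjusted p of 0.05 (lowest 0.483), where 88 of 15149 genes did (0.581%). In direction, 38 members were higher in HET and 15 lower, where 49.9% of all genes were higher. This split rested on HET 1, without which 27 lay above and 26 below 0 and the median was 0.0028 (log2). The middle 50% of the members' log2 fold changes ran from -0.01 to 0.24, and the extremes were Sec63 at -0.40 and Sec24d at 1.11. No member had non-overlapping groups, as 1.99% of all genes did with HET higher and 2.62% with HET lower. The group difference was smaller than the SD within groups for 44 of the 53 members and for 73.4% of all genes tested.

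The intervals bound the changes that these libraries allow. The 95% interval of the fold change lay within 1.5-fold either way for 31 members and within 2-fold for 47. Those that reached 2-fold were Creld2, Edem3, Derl3, Sec24d, Lman1 and Ern1. The count of 2 members at an unadjusted p under 0.05 rested on single libraries. It was 0 without HET 1 or without WT 3, 1 without HET 4, WT 1 or WT 2, 3 without HET 2, 7 (all higher) without HET 3, and 11 (all higher) without WT 4. The share of all genes at this threshold in the same fits is not given here. These counts thus cannot be read as a rise particular to the members.

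**Figure D3:**
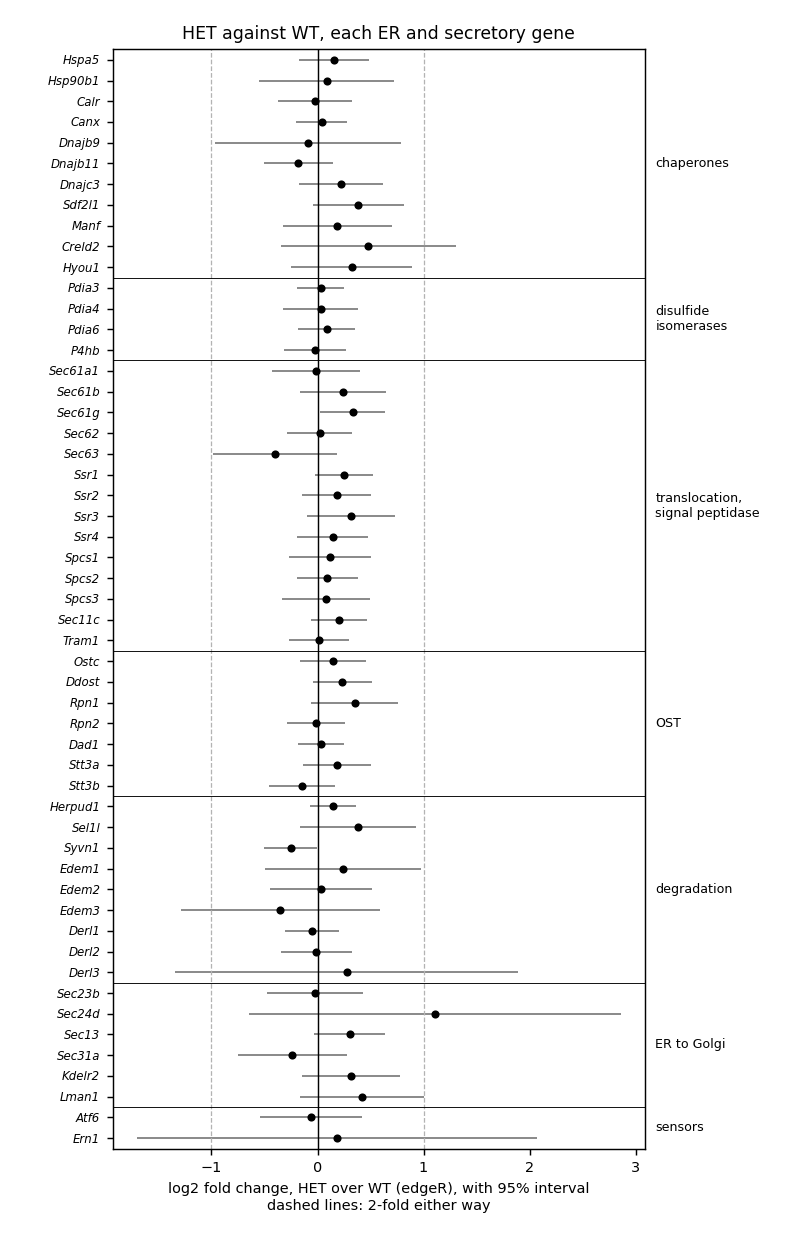
Log2 fold change of each member, HET over WT (points), with the 95% interval from edgeR (lines), grouped by role, and dashed lines at 2-fold either way. The intervals of 51 members cross 0, and those of Sec61g (higher) and Syvn1 (lower) end close to it.

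Luminal chaperones and their helpers were slightly above WT in most cases, with 8 of 11 higher, 3 lower and the median log2 fold change at 0.16. None of the 11 passed, and their score, the mean log2 CPM of the group, was 7.16 ± 0.35 (SD, n = 4) for HET libraries against 7.02 ± 0.31 (SD, n = 4) for WT libraries. Hspa5 (chr2:34771970-34777547 in GENCODE M21 on GRCm38) encodes BiP, the HSP70 chaperone of the ER lumen that also holds the stress sensors inactive. It measured 669, 591, 570 and 800 CPM in HET 1 to 4 and 494, 514, 553 and 799 CPM in WT 1 to 4. HET 4 and WT 4 were the highest of their groups and almost equal, and the groups overlapped. The log2 fold change of Hspa5 was 0.16 ± 0.15 (SE; edgeR adjusted p = 0.876), and its 95% interval of fold change was 0.89 to 1.40. Sdf2l1, a partner of BiP and its J-domain proteins, had the lowest p of this role. It measured 148, 103, 74.0 and 125 CPM in HET and 69.5, 76.6, 88.8 and 110 CPM in WT. HET 3 fell among the WT libraries, and the log2 fold change was 0.38 ± 0.20 (SE; edgeR adjusted p = 0.727).

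Creld2, an ER stress-induced protein, and Hyou1, which exchanges nucleotides on BiP, gave the other larger differences of this role. Creld2 measured 116, 67.0, 45.1 and 121 CPM in HET and 51.8, 39.3, 56.3 and 103 CPM in WT, a log2 fold change of 0.48 ± 0.37 (SE; edgeR adjusted p = 0.839). Hyou1 measured 29.7, 20.2, 20.5 and 24.3 CPM in HET and 21.2, 13.2, 16.5 and 24.9 CPM in WT, a log2 fold change of 0.32 ± 0.27 (SE; edgeR adjusted p = 0.851). In both genes HET 1, HET 4 and WT 4 were the 3 highest libraries. The log2 fold changes of the other 7 chaperones ranged from -0.18 (Dnajb11) to 0.22 (Dnajc3). Calr and Canx, the lectin chaperones that bind glycoproteins, were at -0.02 and 0.04. Hsp90b1, the HSP90 of the ER, was at 0.09.

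The disulfide isomerases, which form and rearrange disulfide bonds, were at close levels in HET and WT. Their score was 8.26 ± 0.21 (SD, n = 4) for HET libraries against 8.23 ± 0.18 (SD, n = 4) for WT libraries, with 3 of 4 higher, 1 lower and none past the test. Pdia3, the isomerase that works with calnexin and calreticulin, measured 451, 391, 359 and 427 CPM in HET and 384, 359, 392 and 461 CPM in WT. Pdia4 measured 348, 254, 207 and 304 CPM in HET and 238, 221, 286 and 347 CPM in WT. Pdia6, which carries an ER stress response element (above), measured 294, 258, 288 and 374 CPM in HET and 269, 282, 255 and 337 CPM in WT. P4hb, protein disulfide isomerase itself, measured 276, 210, 242 and 334 CPM in HET and 254, 269, 243 and 312 CPM in WT. HET 1 and HET 4 lay above HET 2 and HET 3 in all 4 genes, and WT 4 above the other WT libraries. The log2 fold changes were 0.03, 0.03, 0.09 and -0.02, with edgeR adjusted p-values from 0.925 to 0.981, and the sign of each turned under at least 1 other setting or left-out library. Their 95% intervals of fold change ran from 0.80 at the lowest to 1.30 at the highest.

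Of the 14 genes of ER import and signal peptide cleavage, 12 were higher in HET and 2 lower (median log2 fold change 0.13), none past the adjusted threshold. The score of the role was 7.04 ± 0.25 (SD, n = 4) for HET libraries against 6.94 ± 0.14 (SD, n = 4) for WT libraries. Sec61g (chr11:16500530-16508484), the γ subunit of the Sec61 channel, had the lowest p of all members. It measured 249, 175, 178 and 215 CPM in HET and 175, 157, 129 and 189 CPM in WT. WT 4 lay above HET 2 and HET 3, so the groups overlapped. The log2 fold change of Sec61g was 0.33 ± 0.14 (SE), with an unadjusted p of 0.037 and an adjusted p of 0.642 by edgeR.

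The other channel subunits did not pass the adjusted threshold either. The log2 fold change of Sec61a1, which forms the pore, was -0.01. That of Sec61b was 0.24, and its CPM was 253 in HET 1 and between 127 and 158 in the other 7 libraries. Ssr1, the α subunit of the translocon-associated protein complex, measured 167, 151, 144 and 176 CPM in HET and 136, 142, 108 and 151 CPM in WT, a log2 fold change of 0.25 ± 0.13 (SE; edgeR adjusted p = 0.714). The other 3 subunits of that complex were at 0.18 (Ssr2), 0.32 (Ssr3) and 0.14 (Ssr4). Sec11c of the signal peptidase, the member with the highest level per length, measured 380, 289, 251 and 293 CPM in HET and 283, 243, 249 and 280 CPM in WT, a log2 fold change of 0.20 ± 0.12 (SE; edgeR adjusted p = 0.781). Its partner Spcs1 measured 155, 91.8, 95.6 and 120 CPM in HET and 94.5, 89.5, 107 and 136 CPM in WT, a log2 fold change of 0.12 ± 0.18 (SE; edgeR adjusted p = 0.930). Without HET 1, the highest library, the log2 fold change of Spcs1 turned to -0.05. Sec63, a membrane J-domain protein that serves post-translational import with Sec62, was lowest at -0.40 ± 0.27 (SE; edgeR adjusted p = 0.801), with HET 2 at 10.4 CPM and the other libraries between 17.0 and 25.4 CPM. Sec62 was at 0.02.

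The oligosaccharyltransferase, which attaches N-glycans to nascent chains, had 5 of 7 subunits higher in HET and 2 lower (median log2 fold change 0.15), none past the test. Its score was 7.49 ± 0.17 (SD, n = 4) for HET libraries against 7.39 ± 0.13 (SD, n = 4) for WT libraries. Rpn1 (ribophorin I) measured 206, 153, 160 and 292 CPM in HET and 137, 149, 150 and 201 CPM in WT, a log2 fold change of 0.35 ± 0.19 (SE; edgeR adjusted p = 0.740). The HET libraries split into a high and a low pair, and WT 4 lay between them. Ddost measured 262, 184, 190 and 238 CPM in HET and 169, 174, 189 and 211 CPM in WT, a log2 fold change of 0.24 ± 0.13 (SE; edgeR adjusted p = 0.748). Ostc measured 167, 153, 143 and 114 CPM in HET and 136, 127, 104 and 153 CPM in WT, a log2 fold change of 0.15 ± 0.14 (SE; edgeR adjusted p = 0.876).

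The 2 alternative catalytic subunits, Stt3a, which glycosylates chains as they enter the ER, and Stt3b, which serves sites that were skipped, lay on either side of 0. Stt3a measured 175, 131, 132 and 126 CPM in HET and 113, 126, 103 and 155 CPM in WT, a log2 fold change of 0.19 ± 0.15 (SE; edgeR adjusted p = 0.840). HET 1 stood apart from the other HET libraries. Stt3b was at -0.15 ± 0.15 (SE; edgeR adjusted p = 0.879). Dad1 and Rpn2 were at 0.03 and -0.01 and were among the steadiest members.

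Members of ER-associated degradation were split, with 5 of 9 higher, 4 lower and the median log2 fold change at 0.03. The score was 6.06 ± 0.41 (SD, n = 4) for HET libraries against 6.07 ± 0.25 (SD, n = 4) for WT libraries. The 2 core subunits of the ubiquitin ligase complex lay in opposite directions. Syvn1 (chr19:6046576-6053712), the ligase HRD1, measured 194, 172, 179 and 227 CPM in HET and 229, 207, 225 and 260 CPM in WT. Only HET 4 reached the range of WT, and the log2 fold change of Syvn1 was -0.25 ± 0.11 (SE), with an unadjusted p of 0.0451 and an adjusted p of 0.671 by edgeR. Its exons overlap in part those of Mrpl49 on the other strand. With the strand setting of the counting not stated, how reads from the shared positions were counted is not known. Sel1l, the adaptor that holds HRD1 in its complex, measured 104, 50.9, 47.5 and 63.8 CPM in HET and 61.6, 33.3, 52.2 and 57.1 CPM in WT, a log2 fold change of 0.38 ± 0.25 (SE; edgeR adjusted p = 0.795). HET 1 was far above the rest, and without it the log2 fold change was 0.09.

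Herpud1, a stress-induced scaffold of the same complex, was among the steadiest members, with 268, 260, 291 and 279 CPM in HET and 255, 236, 218 and 285 CPM in WT. Its log2 fold change was 0.14 ± 0.10 (SE; edgeR adjusted p = 0.814). The mannosidase-like proteins Edem1, Edem2 and Edem3, which mark glycoproteins for disposal, were at 0.24, 0.03 and -0.35. The derlins, which take part in moving chains out of the ER, were at -0.05 (Derl1), -0.01 (Derl2) and 0.27 (Derl3). Derl3, chosen after its values were seen, measured 59.7, 11.7, 6.44 and 28.2 CPM in HET and 28.9, 10.4, 10.9 and 38.1 CPM in WT. It ranged over more than 2-fold within each group, and its 95% interval of fold change ran from 0.39 to 3.72.

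ER-to-Golgi transport gave the largest median log2 fold change of the roles, 0.31, with 4 of 6 members higher, 2 lower, and none that passed. Its score was 5.84 ± 0.42 (SD, n = 4) for HET libraries against 5.50 ± 0.47 (SD, n = 4) for WT libraries. Sec13, a subunit of the outer COPII coat, measured 169, 154, 180 and 154 CPM in HET and 91.0, 134, 139 and 169 CPM in WT, a log2 fold change of 0.30 ± 0.16 (SE; edgeR adjusted p = 0.732). WT 4 alone reached the HET values. Kdelr2, a receptor that returns ER-resident proteins from the Golgi, measured 145, 102, 86.6 and 127 CPM in HET and 89.4, 95.3, 57.7 and 127 CPM in WT, a log2 fold change of 0.32 ± 0.21 (SE; edgeR adjusted p = 0.800). Lman1, a cargo receptor for glycoproteins, measured 80.8, 51.4, 34.2 and 51.3 CPM in HET and 28.7, 42.0, 33.7 and 58.8 CPM in WT, a log2 fold change of 0.42 ± 0.27 (SE; edgeR adjusted p = 0.794). Sec31a, which pairs with Sec13 in the coat, was at -0.24, with HET 3 at 29.8 CPM and the other libraries between 55.7 and 79.7 CPM. Sec24d, a cargo adaptor of COPII named for its spread, measured 31.2, 10.4, 3.60 and 17.6 CPM in HET and 3.23, 0.914, 10.5 and 14.7 CPM in WT. Its log2 fold change of 1.11 ± 0.79 (SE; edgeR adjusted p = 0.818) was the largest of the members and the least certain but for Ern1.

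The stress sensors showed no common direction. Atf6, which is cut in the Golgi to release a transcription factor, measured 54.1, 40.8, 31.2 and 42.6 CPM in HET and 59.0, 37.7, 46.3 and 33.4 CPM in WT, a log2 fold change of -0.06 ± 0.23 (SE; edgeR adjusted p = 0.977). Ern1 encodes IRE1α, the endonuclease that splices Xbp1 mRNA. It measured 3.30, 2.85, 0.15 and 1.97 CPM in HET and 4.18, 0.813, 0.631 and 1.67 CPM in WT. HET 3 and WT 3 were at the level of a few reads, and the log2 fold change of Ern1 was 0.18 ± 0.88 (SE; edgeR adjusted p = 0.978). Its direction turned when HET 1, WT 2 or WT 3 was left out, so no difference of Ern1 was detectable at this depth. The score of the 2 genes was 3.08 ± 0.90 (SD, n = 4) for HET libraries against 3.08 ± 0.64 (SD, n = 4) for WT libraries.

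Libraries of the same group differed from each other in the members' score. The score over all 53 members was 7.12, 6.63, 6.41 and 6.90 in HET 1 to 4 and 6.66, 6.43, 6.58 and 6.95 in WT 1 to 4. The means were 6.76 ± 0.31 (SD, n = 4) and 6.66 ± 0.22 (SD, n = 4), a difference of 0.11. The range within HET (0.71) and that within WT (0.51) were both larger than this difference. In summed CPM the members took 10195, 7743, 7334 and 9587 in HET and 7885, 7365, 7514 and 9740 in WT. HET 1, HET 4 and WT 4 were thus the 3 highest libraries by either measure. The difference in score between the groups was -0.01 without HET 1, 0.04 without WT 2, 0.07 without HET 4, 0.16 without HET 2, 0.23 without HET 3 and 0.21 without WT 4.

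**Figure D4:**
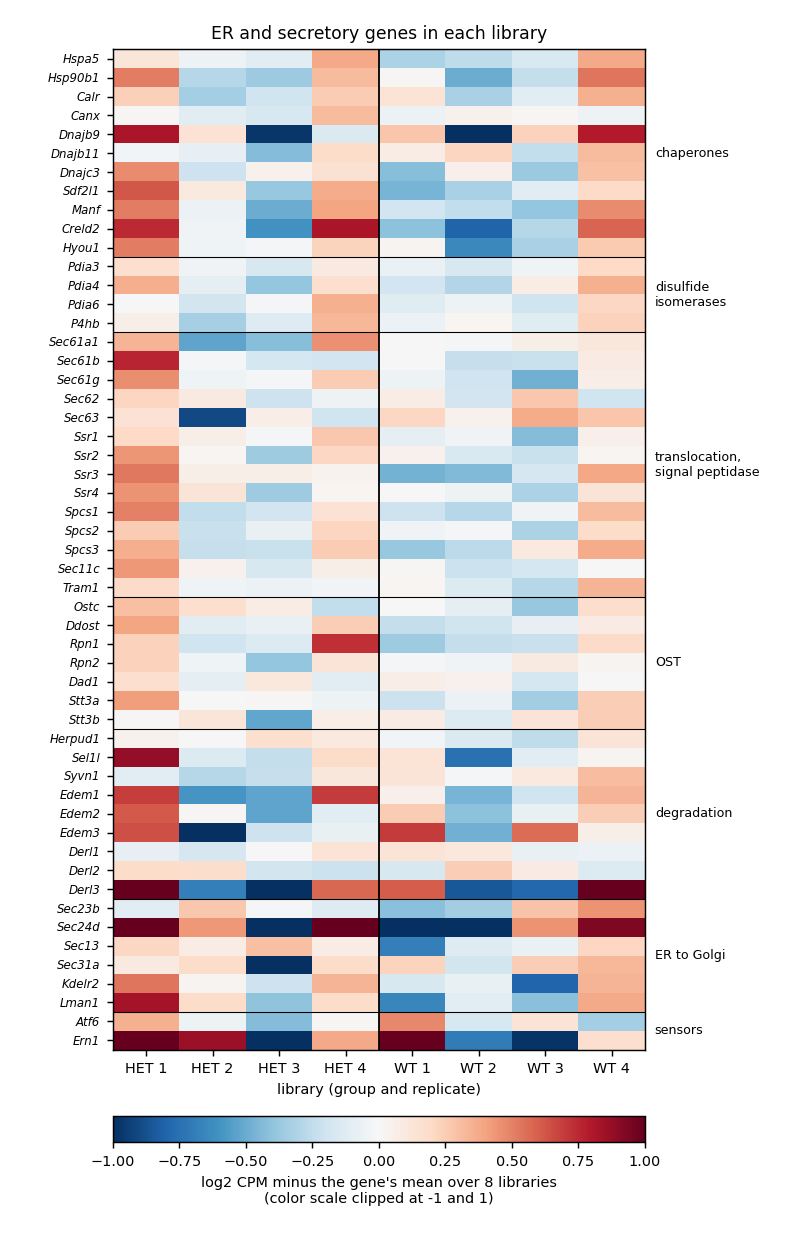
Log2 CPM of each member in each of the 8 libraries, as the difference from the gene's mean over all libraries (color, clipped at -1 and 1), grouped by role. Most rows are red in HET 1, HET 4 and WT 4 and blue in HET 3 and WT 2.

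The same 3 libraries, singled out after their values were seen, were the 3 highest of the 8 for 22 of the 53 members. Among all genes tested, 220 (1.73%) had this order. The 22 members were 8 of the 11 chaperones (Hspa5, Hsp90b1, Calr, Dnajc3, Sdf2l1, Manf, Creld2 and Hyou1), all 4 disulfide isomerases, Sec61a1, Sec61g, Spcs1, Spcs2, Spcs3, Ddost, Rpn1, Edem1, Sec24d and Kdelr2. In 44 of 53 members (83%) the highest library was 1 of these 3, as in 38.1% of all genes. The lean was shared by the 69 other pathway genes tested (described below), of which 47 (68.1%) were highest in 1 of these 3 libraries and 9 (13%) had them as the 3 highest, against 41.5% of the members. Within HET, library 1 and library 4 were the 2 highest for 34 members (64.2%, against 17.5% of all genes), and HET 3 was the lowest for 27 (50.9%, against 25%). Within WT, library 4 was the highest for 39 members (73.6%, against 24.4%). The size of this difference was modest. The median member was 1.34 times the median of the other HET libraries in HET 1, 1.16 times in HET 4, and 1.23 times the median of the other WT libraries in WT 4. Since the members share libraries, these counts describe 3 libraries and not 22 independent genes. The 3 libraries are the highest in the members' own score, so high counts of members in them follow in part from the choice.

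Of these 3 libraries, HET 1 was the deepest of the series at 12559189 counts, HET 4 had 6702397 and WT 4 had 9670663. The part of sequencing depth in the pattern was not tested.

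The members differed in how far they moved. The SD of log2 CPM within groups had a median of 0.31 over the members, 0.28 over the other tested genes of the pathway and 0.40 over all genes tested. It was over 0.5 in 7 members (Dnajb9, Creld2, Edem1, Edem3, Derl3, Sec24d and Ern1), where 38.1% of all genes were over 0.5. Of these, Dnajb9, a J-domain partner of BiP named for its spread, measured 54.6, 34.1, 15.6 and 27.9 CPM in HET and 37.4, 13.9, 36.2 and 53.5 CPM in WT, with no group difference beyond this spread (log2 fold change -0.09 ± 0.40 SE; edgeR adjusted p = 0.978). It was under 0.2 in 9 members (Canx, Pdia3, Herpud1, Syvn1, Derl1, Ssr1, Sec11c, Rpn2 and Dad1), and lowest in Derl1 at 0.12. Libraries of a group spanned more than 2-fold for 13 members in HET (40.9% of all genes did) and for 9 in WT (41.9%).

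The other genes of the pathway, from a list of 72 further symbols that included sensors, co-factors, signal recognition particle subunits and vesicle proteins, moved little as well. Of these, 71 were in the table and 69 were tested. By edgeR 0 of 69 passed an adjusted p of 0.05 (lowest 0.375), and 0 by DESeq2. At an unadjusted p under 0.05 there were 2 higher and 2 lower, where 3.34% and 3.88% of all genes were. In any amount 38 were higher and 31 lower, where 49.9% of all genes were higher, and the median log2 fold change was 0.04. Srp19, a subunit of the particle that brings nascent chains to the ER, had the lowest p. It measured 112, 86.9, 87.5 and 110 CPM in HET and 64.9, 71.3, 68.9 and 75.8 CPM in WT, without overlap, as 1.99% of all genes did with HET higher. The log2 fold change of Srp19 was 0.50 ± 0.14 (SE), with an unadjusted p of 0.00277 and an adjusted p of 0.375 by edgeR. Krtcap2, a small oligosaccharyltransferase subunit, measured 168, 153, 135 and 142 CPM in HET and 122, 127, 104 and 128 CPM in WT, also without overlap (log2 fold change 0.31 ± 0.12 SE; edgeR adjusted p = 0.600). Sec24b, a COPII cargo adaptor, measured 48.6, 39.2, 40.3 and 65.7 CPM in HET and 66.2, 81.7, 65.4 and 58.1 CPM in WT (log2 fold change -0.49 ± 0.19 SE; edgeR adjusted p = 0.612). The fourth gene, Mbtps1, the protease that cuts ATF6, was at -0.50 ± 0.21 (SE; edgeR adjusted p = 0.621). Leaving out WT 2 brought the count of 4 down to 2.

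Regulators of the stress response were read beside the members. Xbp1, the transcription factor that IRE1α activates and that drives secretory genes in plasma cells, measured 297, 148, 164 and 313 CPM in HET and 139, 121, 155 and 263 CPM in WT. HET 1, HET 4 and WT 4 were again the 3 highest libraries. The log2 fold change of Xbp1 was 0.44 ± 0.33 (SE; edgeR adjusted p = 0.835). In the PERK arm, Atf4, its transcription factor, measured 221, 268, 252 and 234 CPM in HET and 266, 222, 242 and 259 CPM in WT (log2 fold change -0.02 ± 0.10 SE; edgeR adjusted p = 0.978), and HET 1 was its lowest library. Eif2ak3 measured 39.3, 21.8, 15.7 and 30.9 CPM in HET and 32.4, 32.4, 36.9 and 44.5 CPM in WT (log2 fold change -0.43 ± 0.27 SE; edgeR adjusted p = 0.787). As in many members, HET 1 and HET 4 were its 2 highest HET libraries and WT 4 its highest WT library, but HET 4 lay below every WT library. Mzb1, a chaperone-like protein of immunoglobulin assembly, measured 58.5, 24.2, 26.1 and 36.5 CPM in HET and 28.3, 21.3, 27.1 and 26.0 CPM in WT (log2 fold change 0.50 ± 0.28 SE; edgeR adjusted p = 0.740). Ddit3 was not analysed here.

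Markers of antibody-secreting cells moved with these libraries in part. The 9 markers summed to 2260, 370, 404 and 660 CPM in HET 1 to 4 and to 419, 322, 390 and 624 CPM in WT 1 to 4, so HET 1, HET 4 and WT 4 were highest here too. This list shares Xbp1 and Mzb1 with the list of other pathway genes. Most of the HET 1 sum was Jchain, the joining chain of secreted IgM and IgA, at 1576 CPM. In the other HET libraries Jchain measured 25.1, 10.5 and 97.1 CPM, and in WT 41.6, 0.813, 0.505 and 94.8 CPM. Prdm1, which encodes BLIMP-1, the repressor that defines plasma cells, measured 10.2, 1.81, 0.15 and 1.67 CPM in HET and 0.475, 3.15, 1.89 and 10.9 CPM in WT. It was thus high in HET 1 and WT 4 and not in HET 4. Tnfrsf17 (BCMA) was at 0 in 6 libraries, and Sdc1 (CD138) lay between 17.0 and 40.3 CPM and was highest in WT 2. Irf4 measured 120, 70.7, 64.1 and 80.5 CPM in HET and 70.5, 54.05, 67.6 and 108 CPM in WT. Ell2 measured 41.8, 11.8, 15.9 and 29.0 CPM in HET and 26.2, 8.23, 19.7 and 28.4 CPM in WT. HET 1, HET 4 and WT 4 were the 3 highest libraries for Irf4 and Ell2, as for Xbp1 and Jchain. They were not for Mzb1, Slamf7, Prdm1, Tnfrsf17 or Sdc1. Of the 8 markers tested, 6 were higher in HET and 2 lower, where 49.9% of all genes were higher. None had an unadjusted p under 0.05 by edgeR, where 7.22% of all genes did. Whether these markers and the ER genes were high in the same cells was not tested, and in bulk libraries a few cells with much RNA and many cells with a little more cannot be told apart.

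Markers of dividing cells followed another order. The 8 genes summed to 414, 336, 446 and 511 CPM in HET and to 330, 262, 286 and 104 CPM in WT. Of the 3 libraries with high ER genes, HET 4 had the highest and WT 4 the lowest of these sums. All 8 were higher in HET, where 49.9% of all genes were. By edgeR 2 had an unadjusted p under 0.05, where 3.34% of all genes did with HET higher. None passed the adjusted threshold by edgeR (lowest 0.087, Ccnb2). By DESeq2 Ccnb2 alone passed (0.581% of all genes did), with an adjusted p of 3.6e-05. Its groups did not overlap, as for 1.99% of all genes with HET higher. The part of cell division in the ER values was not tested.

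**Figure D5:**
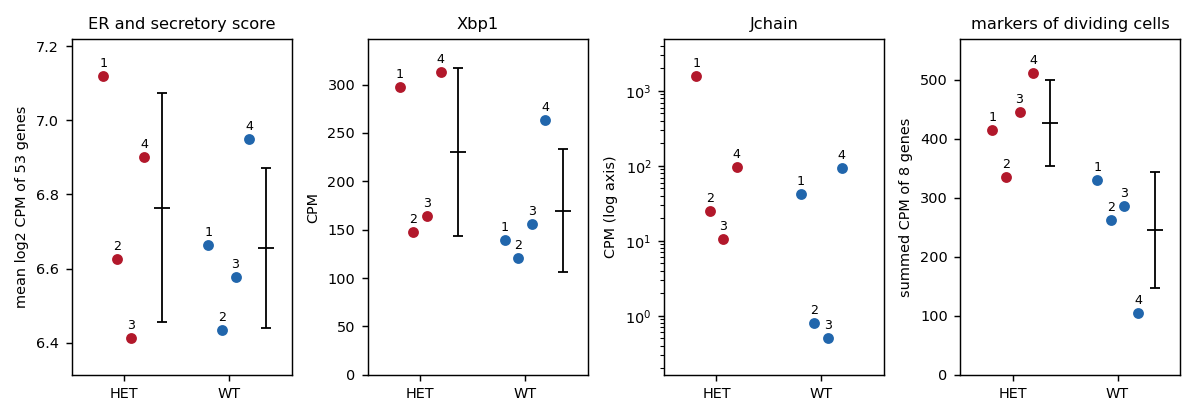
Values per library (points, numbered by replicate, HET red and WT blue) of the mean log2 CPM of the 53 members, Xbp1 in CPM, Jchain in CPM (log axis) and the summed CPM of 8 markers of dividing cells, with the group mean and SD as bars (not for Jchain). Libraries HET 1, HET 4 and WT 4 are the 3 highest in the first 3 panels, and in the last HET 4 is the highest and WT 4 the lowest.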

How the data were processed

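RNA was measured by an adapted SMART-Seq2 protocol in 8 libraries of pre-GC B cells. The authors ran FastQC on the reads, mapped them to GRCm38 (mm10) with HISAT2 2.2.1, sorted them with Samtools and counted them per gene with HTSeq. The annotation release and strand setting were not given in the sources used here. The deposited counts are whole numbers of reads for 24259 gene symbols. The deposited TPM table holds 24232 symbols, and its values are the same counts divided by 1 length per gene and rescaled by the authors to 1 common total. All columns were matched to libraries by name.

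Counts were fitted in R 4.3.3 with edgeR 4.0.16 (filterByExpr, which kept 12744 genes, TMM, robust quasi-likelihood F-test, no covariates). P-values were adjusted over all genes tested by Benjamini-Hochberg, with a threshold of 0.05. The common biological coefficient of variation was 0.391. Standard errors were taken from the fold change and the F statistic. Log2 CPM used a prior count of 2, and a score is the mean log2 CPM of its genes. The fit was tested on simulated counts. DESeq2 1.42.0, which the study used, and limma 3.58.1 on log2(TPM + 1) and log2(TPM + 0.1) were alternatives, with RLE factors, other count filters, a replicate block, a covariate and left-out libraries. Positions and lengths came from GENCODE M21 (GRCm38), and promoters from RefSeq. SMART-Seq2 carries no molecular identifiers, and 12 members share exonic positions with another gene.

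Members, lists, tests and alternatives were chosen with earlier results of these data known. In each role the 3 members with the lowest p and the one with the highest TPM were named, with 5 regulators (of which Ddit3 was not analysed here) and the 3 other pathway genes with the lowest p. Other genes were named after their values were seen. P-values measure only the spread between sorted portions of 1 pool per group. No library duplicated another of its group (chi-square per degree of freedom between 13.3 and 31.7 for pairs).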

Additional observations from a re-analysis of the deposited data

Results flagged for a closer look

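Of 210 sets of 4 libraries examined (each member, named pathway gene, marker, list sum and the member score in each group), 21 had 1 library far from the other 3 by Dixon's criterion. For normally distributed values chance alone gives this in about 5% of sets. A set with 3 libraries at 0 and 1 above it is always flagged, so the count of 21 cannot be set against that rate. Among the 53 members, each examined in HET and in WT, this held for 5 sets, all in HET, a share near 5%. HET 1 was the high library for Stt3a at 175 CPM (others 126 to 132), Sec61b at 253 CPM (others 131 to 148), Ssr3 at 126 CPM (others 89.6 to 91.1) and Tram1 at 239 CPM (others 200.5 to 205). HET 3 was the low library for Sec31a at 29.8 CPM (others 67.4 to 71.8). HET 1 also stood apart in markers of antibody-secreting cells, with Prdm1 at 10.2 CPM (others 0.15 to 1.81), Jchain at 1576 CPM (others 10.5 to 97.1), Tnfrsf17 at 4.10 CPM (others 0) and a summed level of 2260 CPM (others 370 to 660). In WT, Tnfrsf17 was at 5.23 CPM in WT 1 and at 0 in the others.

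WT 2 stood apart in Lyz2 at 399 CPM (others 0 to 28.5), in the summed myeloid markers at 422 CPM (others 20.4 to 50.4), in Fcgr1 at 1.22 CPM and Csf3r at 0.102 CPM (others 0), and in the lowest sum of B cell markers of WT, 24516 CPM (others 26972 to 27125). WT 4 stood apart in Adgre1 at 11.3 CPM (others 1.89 to 3.35), Cd14 at 4.38 CPM (others 0 to 0.505) and Cd4 at 0.731 CPM (others 0). In HET, Ebf1 was 232 CPM in HET 4 (others 220.1 to 222), Cd14 was 1.35 CPM in HET 3 and Csf3r 0.303 CPM in HET 4 (others 0). Values under 0.455 CPM correspond to 3 reads or fewer in the shallowest libraries. The part of these cells or transcripts in the levels of the ER genes was not tested.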

How the results depend on the processing

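No member passed an adjusted p of 0.05 in any of 18 alternatives. The member score differed by 0.05 to 0.11 under the 9 other settings and by -0.01 to 0.23 with libraries left out. The count of members at an unadjusted p under 0.05 (2) was 4 without a filter on low counts, 1 by limma on log2(TPM + 1), on log2(TPM + 0.1) and with genes detected as a covariate, and 0 to 11 with libraries left out, 4 of them without both HET 1 and WT 4. That of the other pathway genes (4) was 2 to 5 with libraries left out. The share of all genes at an unadjusted p under 0.05 in these alternatives is not given here. Over all genes the count passing (3) was 88 by DESeq2, 38 without a filter, 7 with a mean of at least 50 counts, 0 and 1 by limma with the larger and smaller pseudocount, 1 with the covariate, and 1 to 6 with libraries left out. The cause was not tested. Of 278 other-setting and 279 left-out values of named genes, 7 and 23 turned in direction, and 271 and 256 kept it. Atf4 turned to 0.0011 and P4hb to 0.0212 with the covariate, Pdia3 to -0.0194 and -0.0195 by limma with the larger and smaller pseudocount, and Pdia4 to -0.0261 and -0.0264 by these and to -0.0035 with the covariate. With libraries left out the log2 fold changes ran from -0.0691 to 0.0468 (Atf4), -0.32 to 0.107 (Atf6), -0.178 to 0.985 (Ern1), -0.147 to 0.0805 (P4hb), -0.0193 to 0.107 (Pdia3), -0.0945 to 0.165 (Pdia4), -0.0276 to 0.19 (Pdia6) and -0.0533 to 0.259 (Spcs1).

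The replicate numbers did not pair the libraries, since deviations of same-numbered libraries correlated at -0.05, 0.01, 0.0028 and -0.03. With the replicate block, 4 members had an unadjusted p under 0.05 (3 higher, 1 lower), and 0 of all genes passed. HET 2 correlated best with WT 2, and the other HET libraries with another number. Genes at a few reads, such as Ern1, are limited by depth.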
